A study of Homo sapiens with 9 samples.

Results

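The chromatin regulators described here are 82 genes among the 11991 that could be named and tested on these arrays. They were taken by gene symbol, from a list drawn up with earlier results of these data known. It holds the SMARC, CHD, KDM, KMT2, KMT5, HDAC, SIRT, CBX, SUV39H, SETD and ARID families together with the Polycomb genes EZH2, SUZ12, EED, JARID2, PHC1 and RING1. Each gene is represented by its probe with the highest mean in the authors' deposited log2 table. All 82 passed the detection filter, as did each of the 11991 named genes, and 71 were detected on all 9 arrays. Relatives of these families that have no named probe here, such as EZH1, RNF2, CBX8, SMARCD2 and KDM6B, were not analysed here.

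All samples came from 1 established human embryonic stem cell line, H9, and each of the 3 groups had 3 Illumina BeadChip arrays. The undifferentiated cells (hESC) grew on mouse embryonic fibroblasts, and their medium held 4 ng/ml bFGF. The second group consisted of embryoid bodies, aggregates grown in suspension, after 6 days in 40 nM BMP4. The perivascular progenitors were the collagen-adherent, passaged cells obtained from day 6 embryoid bodies after dissociation and growth in an endothelial medium, so BMP4 was part of their history too. The labels do not say whether the arrays of a group stand for separate cultures, and p-values then measure only the spread between arrays. The number of passages is not given in the sources used here.

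Between 17964 and 21172 probes were detected per array. The 7 measured pluripotency markers had mean levels of 12.27 to 12.96 in hESC, 12.99 to 13.02 in embryoid bodies and 6.197 to 6.27 in progenitors (log2 intensity, the scale of every level below). NANOG, one of these, read 11.23, 11.18 and 5.23 on the hESC arrays and was not detected on array 3, where the other 6 were all detected. The endoderm genes FOXA2 (9.63, 9.44 and 6.47) and APOA1 (9.11, 8.97 and 6.68) were low on the same array. AFP, the other endoderm gene measured, was high there (8.36, 8.38 and 10.22). The 9 measured perivascular and mesenchymal markers averaged 7.72 to 7.94, 8.11 to 8.17 and 12.23 to 12.65. Of these, 7 were higher in progenitors than in hESC, but RGS5, a regulator of G protein signalling in pericytes, was not (7.06 ± 0.39 in hESC, 6.25 ± 0.14 in progenitors, n = 3 each), nor was TAGLN, an actin-binding protein of smooth muscle (12.91 ± 0.44 and 13.31 ± 0.02). The 10 markers of dividing cells averaged 10.91 to 10.995 in hESC, 10.82 to 10.86 in embryoid bodies and 8.43 to 9.41 in progenitors, and all 10 were lower in progenitors than in hESC. Their part in the changes below was not tested. Array 3 of hESC and array 2 of the progenitors stood apart, with 426 to 445 and 600 to 657 genes at least 2-fold from the other arrays of their group, against 2 to 44 for the remaining pairs. Several results that rest on them are given with and without them, but others, such as those of CBX7 and ARID3A, only with them.

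DNA in the nucleus is wound on histones, and the genes described here code for proteins that place, remove or read chemical marks on histones or slide the nucleosomes they form. Polycomb complexes keep developmental genes silent: PRC2 methylates a lysine of histone H3, and PRC1 reads that mark and ubiquitinates histone H2A. SWI/SNF (BAF), ISWI and CHD proteins are motors that use ATP to move nucleosomes, and they exchange subunits as stem cells differentiate. Methyltransferases of the KMT2, SETD and SUV39H families are countered by KDM demethylases, while HDAC and SIRT enzymes remove acetyl groups. In embryonic stem cells these activities are known for holding lineage genes silent but ready for activation.

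A gene is said to have changed, risen or fallen if limma's moderated test gave an adjusted p under 0.05 (Benjamini-Hochberg over all 11991 genes) together with a difference of at least 2-fold. In embryoid bodies 0 of 82 chromatin regulators changed against hESC, where 3.09% of all genes changed (1.5% higher, 1.59% lower), and 25 members (30.5%) had an unadjusted p under 0.05, beside 35.7% of all genes. In progenitors 24 of 82 (29.3%) changed against hESC, 6 higher (7.32%) and 18 lower (22%). The background was 33.7% of all genes, 14.7% higher and 19.1% lower, so the share of changed members lay near that of all genes. Against embryoid bodies 25 members changed in progenitors, 8 higher and 17 lower, beside a background of 34.2%, 15.3% and 18.9%. At an adjusted p under 0.05 and any fold, 59 members differed between progenitors and embryoid bodies, 19 higher and 40 lower (background 69%, 31.2% and 37.8%). The arrays of the groups did not overlap for 32 members in embryoid bodies against hESC, for 62 in progenitors against hESC and for 66 between progenitors and embryoid bodies, beside 48.8%, 71.4% and 74.8% of all genes. The median log2 change of the members was −0.10 for embryoid bodies and −0.41 for progenitors relative to hESC, and −0.35 between progenitors and embryoid bodies, beside −0.01, −0.07 and −0.08 for all genes. Both comparisons with progenitors share the progenitor arrays and are not independent. Arrays of bulk cells cannot tell fewer cells of a type from less RNA per cell.

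**Figure D1:**
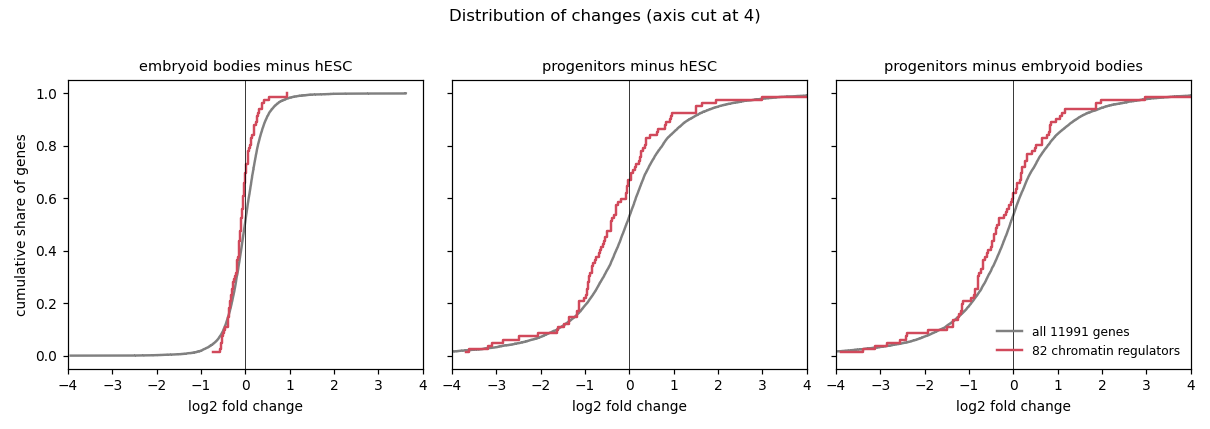
Cumulative share of genes (y axis) by log2 fold change (x axis, drawn from −4 to 4) for the 82 chromatin regulators and all 11991 genes in the 3 comparisons. In embryoid bodies the members lie within −0.72 and 0.93, while in progenitors their curve runs left of that of all genes around the median.

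**Figure D2:**
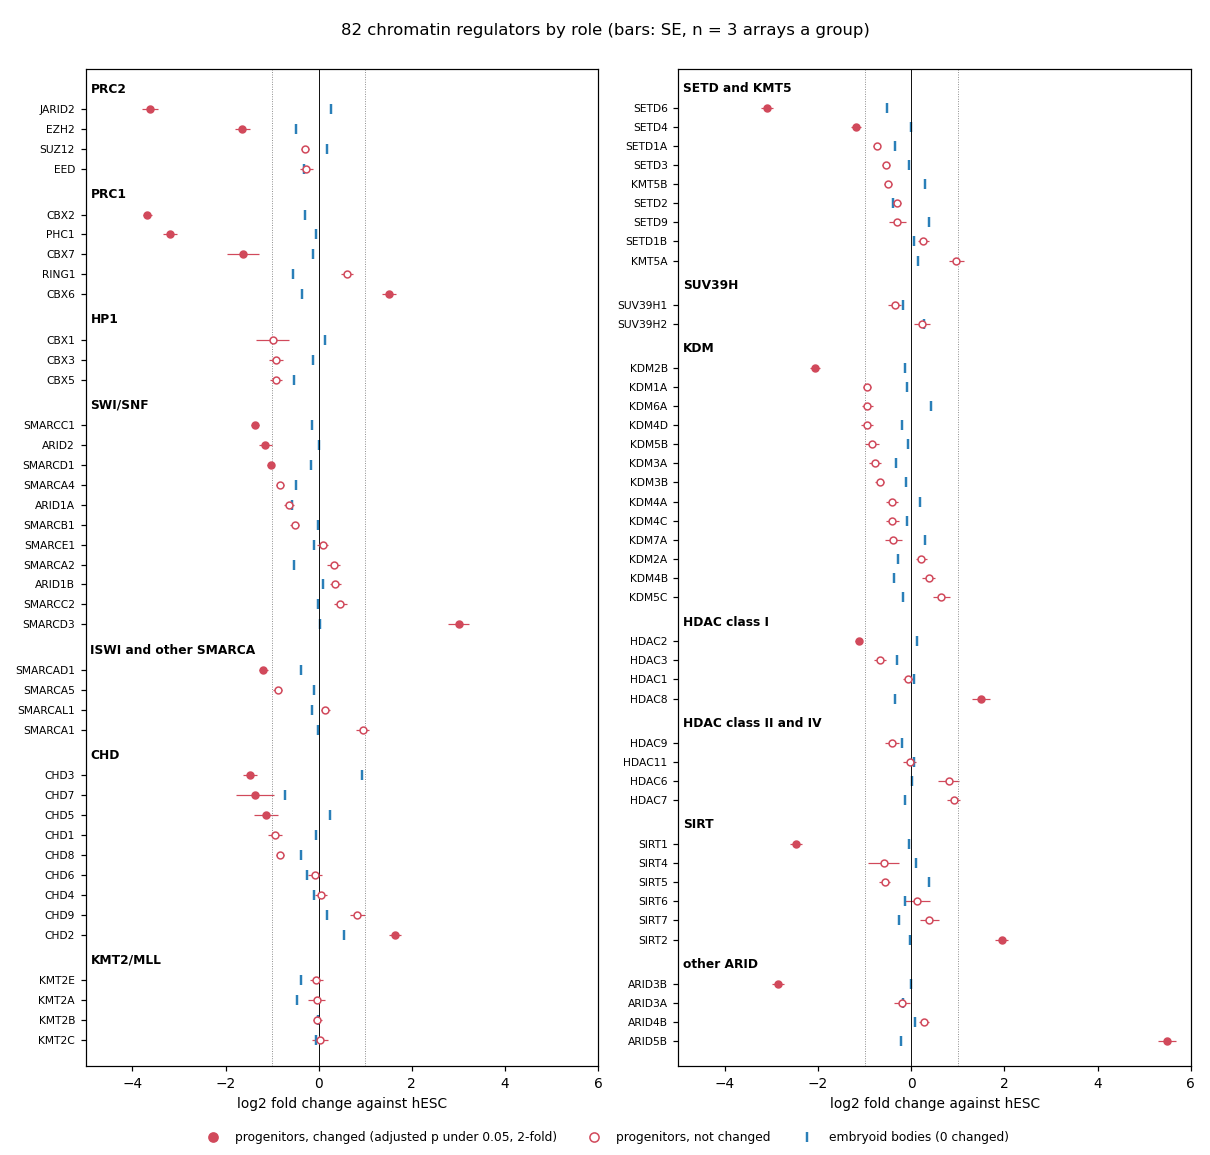
Log2 fold change against hESC of each chromatin regulator, ordered by role. Circles give progenitors with their SE (n = 3 arrays a group, filled where the gene changed), blue ticks give embryoid bodies, and dotted lines mark a 2-fold difference. Most filled circles lie left of the line at 0, and the tick of every member lies between the dotted lines.

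Among the members, the largest falls in progenitors were those of CBX2, JARID2 and PHC1, all Polycomb genes. JARID2 and PHC1 were put on the list by name. Polycomb genes outside it went both ways (PHC2 rose and SCML2 fell against hESC, among others). JARID2, a PRC2 cofactor that helps to bring the complex to its targets, read 12.77, 12.70 and 13.15 on the hESC arrays, 13.18, 13.18 and 13.07 in embryoid bodies and 9.07, 9.62 and 9.06 in progenitors. The progenitor arrays lay apart from both other groups, which overlapped. Its log2 fold change was −3.62 (SE 0.17, adjusted p = 1.76e-07) against hESC, a 12.3-fold fall, and −3.90 against embryoid bodies. EZH2, the catalytic subunit of PRC2, read 9.79, 9.99 and 9.80 in hESC, 9.36, 9.40 and 9.37 in embryoid bodies and 8.36, 7.84 and 8.48 in progenitors. The 3 groups did not overlap, and EZH2 fell by 1.64 on the log2 scale in progenitors against hESC (SE 0.16, adjusted p = 1.64e-05) and by 1.15 against embryoid bodies. The latter call dropped under 2-fold without progenitor 2 (−0.96), without background correction (−0.89) and in the authors' log2 table (−0.86). Its further 2 probes gave −1.75 and −1.19 against hESC.

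The remaining PRC2 members stayed within 2-fold. SUZ12, the scaffold subunit that EZH2 needs for activity, read 12.43, 12.30 and 12.40 in hESC and 12.04, 12.02 and 12.18 in progenitors, a log2 difference of −0.30 (SE 0.09, adjusted p = 0.0138). EED, the subunit that binds the finished methyl mark, differed by −0.27 (adjusted p = 0.11). Of 4 PRC2 genes, 2 fell against hESC, 0 rose and 2 did not change, where 19.1% of all genes fell and 14.7% rose.

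Among 5 PRC1 genes, 3 fell and 1 rose in progenitors against hESC, and 3 fell and 2 rose against embryoid bodies. The shares of all genes were 19.1% and 14.7%, and 18.9% and 15.3%. CBX2, a chromodomain protein that reads the PRC2 mark and compacts chromatin, read 12.23, 12.24 and 12.23 in hESC, 11.95, 11.97 and 11.91 in embryoid bodies and 8.52, 8.43 and 8.73 in progenitors. This was the largest fall of any member against hESC, −3.67 (SE 0.10, adjusted p = 4.35e-09), or 12.8-fold. A second, dim CBX2 probe moved by −0.78. PHC1, a polyhomeotic protein whose SAM domain lets PRC1 form chains, went from 11.32, 11.42 and 11.65 in hESC to 8.11, 8.59 and 8.09 in progenitors, with embryoid bodies at 11.42, 11.36 and 11.42. Its fall was −3.20 (SE 0.15, adjusted p = 1.49e-07) against hESC and −3.13 against embryoid bodies, while embryoid bodies differed from hESC by −0.07 (adjusted p = 0.794).

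The chromodomain genes did not move alike. CBX6 read 9.87, 9.77 and 9.35 in hESC, 9.18, 9.39 and 9.34 in embryoid bodies and 11.24, 11.06 and 11.23 in progenitors, a rise of 1.51 (SE 0.14, adjusted p = 1.47e-05) against hESC. CBX7, a chromodomain protein abundant in mouse embryonic stem cells, read 8.20, 8.11 and 8.78 in hESC, 8.35, 8.24 and 8.12 in embryoid bodies and 6.26, 7.64 and 6.34 in progenitors. Progenitor 2 was the high array of its group, and CBX7 fell by 1.62 against hESC (adjusted p = 0.00243), a call lost when the closest arrays were averaged (adjusted p = 0.057, and 0.159 against embryoid bodies). RING1, a ubiquitin ligase subunit of PRC1, was lowest in embryoid bodies (10.91, 11.03 and 10.98), intermediate in hESC (11.61, 11.49 and 11.44) and highest in progenitors (11.98, 12.42 and 11.97). It rose by 1.16 from embryoid bodies to progenitors (adjusted p = 4.39e-05) and stayed under 2-fold against hESC (0.61).

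**Figure D3:**
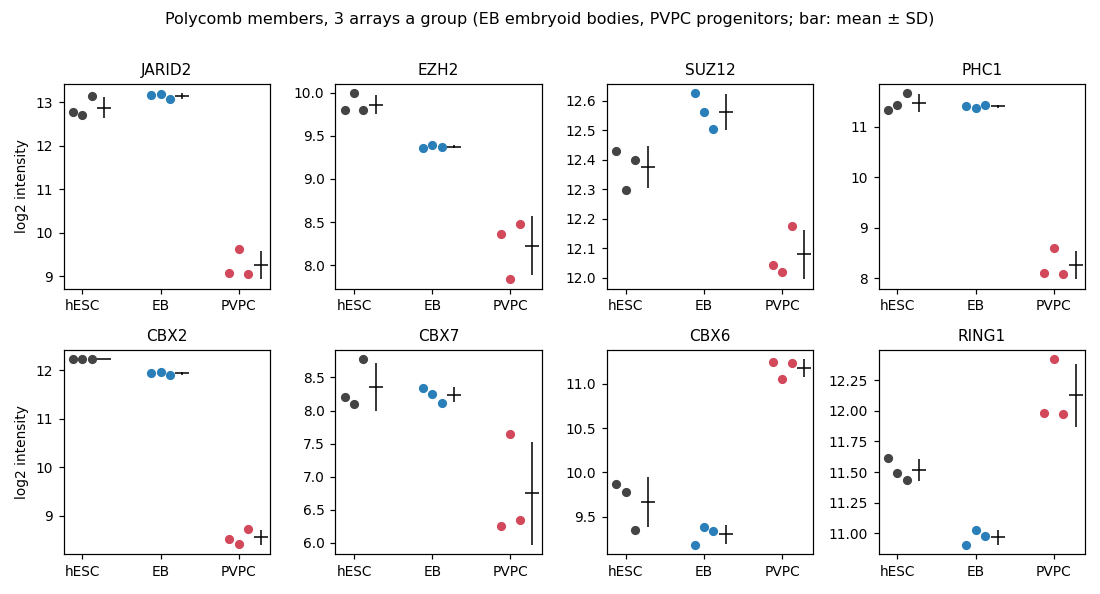
Log2 intensity (y axis, its range set per gene) of 8 Polycomb genes on each array, with the mean and SD of each group beside the points. JARID2, PHC1 and CBX2 are low in progenitors alone, EZH2 is lower in embryoid bodies by less than 2-fold (adjusted p = 0.0568) and lowest in progenitors, and CBX6 and RING1 are highest in progenitors.

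Promoter windows of 5 members that changed in progenitors, 4 lower and 1 higher, are shown so that their letters can be read beside the values. Each has 300 bases, from 250 before to 50 after an annotated start (RefSeq, GRCh38.p14). Capitals mark the motifs searched on both strands, which do not overlap in these windows. They are TTTGGCGC for E2F, CACGTG for the E-box, TGACGTCA for the cAMP response element, CATTGTT for SOX factors and ATTTGCAT for the octamer. Windows were found for 71 of the 82 members, 112 windows in all, and for JARID2, PHC1 and EZH2, which have a second window without any of these motifs, the window that holds one is shown. The JARID2 window (chr6:15248605-15248904, plus strand) holds the cAMP response element at bases 140 and 189, and the PHC1 window (chr12:8913593-8913892, plus strand) a SOX motif at base 145. The EZH2 window (chr7:148884242-148884541, minus strand) holds the E2F motif at base 252, just past the start. SIRT1 (chr10:67884406-67884705, plus strand) holds the E-box at bases 128 and 207, and ARID5B (chr10:62049107-62049406, plus strand) none of the 5, nor does its second window.
JARID2: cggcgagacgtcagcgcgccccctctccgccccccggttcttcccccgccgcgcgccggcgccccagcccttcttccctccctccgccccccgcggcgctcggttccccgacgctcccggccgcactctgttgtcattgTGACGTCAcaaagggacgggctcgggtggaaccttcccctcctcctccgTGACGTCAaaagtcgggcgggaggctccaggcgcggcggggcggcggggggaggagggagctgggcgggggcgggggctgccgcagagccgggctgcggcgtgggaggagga
PHC1: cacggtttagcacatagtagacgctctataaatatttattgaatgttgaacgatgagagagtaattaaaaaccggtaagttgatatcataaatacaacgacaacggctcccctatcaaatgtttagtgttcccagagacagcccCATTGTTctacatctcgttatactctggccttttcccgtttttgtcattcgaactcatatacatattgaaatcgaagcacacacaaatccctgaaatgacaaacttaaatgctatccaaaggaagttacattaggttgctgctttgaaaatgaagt
EZH2: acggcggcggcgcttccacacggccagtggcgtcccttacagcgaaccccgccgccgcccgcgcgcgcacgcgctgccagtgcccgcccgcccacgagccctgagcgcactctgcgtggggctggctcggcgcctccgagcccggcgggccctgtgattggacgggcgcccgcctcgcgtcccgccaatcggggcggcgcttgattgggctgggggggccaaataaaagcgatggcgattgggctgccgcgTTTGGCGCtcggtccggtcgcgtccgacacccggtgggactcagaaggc
SIRT1: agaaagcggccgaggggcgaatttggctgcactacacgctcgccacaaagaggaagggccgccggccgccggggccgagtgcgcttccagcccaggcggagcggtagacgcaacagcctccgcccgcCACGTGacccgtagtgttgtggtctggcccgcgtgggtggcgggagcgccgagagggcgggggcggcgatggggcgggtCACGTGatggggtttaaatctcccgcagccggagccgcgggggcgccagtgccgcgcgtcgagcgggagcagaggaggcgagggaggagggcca
ARID5B: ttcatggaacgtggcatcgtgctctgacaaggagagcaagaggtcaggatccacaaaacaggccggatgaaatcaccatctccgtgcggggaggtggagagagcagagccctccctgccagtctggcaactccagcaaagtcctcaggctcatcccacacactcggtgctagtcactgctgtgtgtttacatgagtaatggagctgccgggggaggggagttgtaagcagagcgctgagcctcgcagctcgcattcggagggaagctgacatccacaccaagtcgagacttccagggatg
Of all 35116 windows, 1.85% hold the cAMP response element, 3.33% the SOX motif, 0.652% the E2F motif, 7.26% the E-box and 1.77% the octamer. Among the 112 member windows, in the same order, the shares were 2.68%, 4.46%, 1.79%, 7.14% and 4.46%. A gene can have several windows, and those with a motif came from 3, 3, 2, 8 and 3 of 71 genes. These matches describe the letters of the windows. Member windows had a median of 28 CG dinucleotides and all windows 14.

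The 3 genes of heterochromatin protein 1 code for proteins that bind methylated histone H3 in silent regions. On the probes used, all 3 were lower in progenitors than in hESC by less than 2-fold. CBX5 (HP1 alpha) read 11.81, 11.76 and 11.60 in hESC, 11.21, 11.25 and 11.11 in embryoid bodies and 10.90, 10.54 and 10.99 in progenitors, with no overlap between the groups (−0.53 and −0.92 against hESC, adjusted p = 0.0197 and 1.89e-04). CBX3 (HP1 gamma) differed by −0.92 (adjusted p = 3.67e-04). A second, dimmer CBX3 probe gave −1.48. With the mean of the CBX3 probes the difference passed 2-fold against hESC (−1.20) and against embryoid bodies (−1.29). CBX1 (HP1 beta) read 9.35, 9.66 and 11.004 in hESC, where array 3 was the high one, 10.12, 10.16 and 10.14 in embryoid bodies and 9.12, 8.80 and 9.13 in progenitors. It fell by 1.13 against embryoid bodies (adjusted p = 0.0191), a call lost without progenitor 2 (0.0602), and differed from hESC by −0.99 (adjusted p = 0.0336). Without hESC 3 the difference from hESC was −0.49 (adjusted p = 0.0126). Without 1 array it passed 2-fold for CBX1 (−1.31 without hESC 1, −1.16 without hESC 2), for CBX3 (−1.02 without hESC 2, −1.04 without progenitor 1) and for CBX5 (−1.0 without progenitor 3). SUV39H1 and SUV39H2, which write the mark that HP1 reads, moved by −0.35 (adjusted p = 0.0473) and 0.23 (0.251).

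In the SWI/SNF complexes the paralogues SMARCD1 and SMARCD3 changed in opposite directions. Of 11 genes, 3 fell, 1 rose and 7 did not change in progenitors against hESC, and 2 fell and 1 rose against embryoid bodies. Over all genes 19.1% fell and 14.7% rose against hESC, and 18.9% and 15.3% against embryoid bodies. SMARCD3 (BAF60C), a subunit known from heart and muscle, read 7.18, 6.86 and 6.34 in hESC, 6.89, 6.94 and 6.64 in embryoid bodies and 9.61, 10.15 and 9.63 in progenitors. It rose 8.01-fold against hESC, 3.002 (SE 0.23, adjusted p = 3.24e-06), with the progenitors clear of both other groups. Its paralogue SMARCD1 (BAF60A) read 12.58, 12.49 and 12.46, 12.34, 12.34 and 12.34 and 11.43, 11.53 and 11.47, a fall of −1.03 (SE 0.08, adjusted p = 3.73e-06) that was just under 2-fold without hESC 1 (−0.997).

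SMARCC1 (BAF155), a core subunit of the stem cell form of the complex, fell from 13.32, 13.34 and 13.44 in hESC and 13.22, 13.23 and 13.22 in embryoid bodies to 12.03, 11.91 and 12.07 in progenitors. The difference from hESC was −1.37 (SE 0.08, adjusted p = 8.91e-07). SMARCC2 (BAF170), which replaces it in differentiating cells of the mouse, read 10.38, 10.20 and 10.18, 10.31, 10.25 and 10.14 and 10.56, 11.004 and 10.60 (0.47, adjusted p = 0.011, under 2-fold). A dim second SMARCC2 probe pointed the other way (−0.29). The ATPase SMARCA4 (BRG1) read 12.02, 12.05 and 11.88 in hESC, 11.51, 11.51 and 11.44 in embryoid bodies and 11.24, 11.07 and 11.17 in progenitors, a lower level at each stage (−0.50 and −0.82 against hESC, adjusted p = 0.00621 and 3.58e-05). The alternative ATPase SMARCA2 (BRM) was lowest in embryoid bodies, at 8.86, 8.90 and 8.72, beside 9.33, 9.15 and 9.61 in hESC and 9.49, 9.93 and 9.63 in progenitors (0.32 against hESC, adjusted p = 0.084, and 0.86 against embryoid bodies, 6.99e-04).

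Of the ARID subunits, which target the complexes and bind DNA, ARID2 fell (−1.15 (SE 0.14, adjusted p = 6.61e-05)) from 8.80, 8.58 and 8.92 in hESC to 7.65, 7.82 and 7.40 in progenitors, and embryoid bodies read 8.66, 8.89 and 8.78. ARID1A differed from hESC by −0.64 in progenitors and −0.57 in embryoid bodies, under 2-fold in both (adjusted p = 6.82e-04 and 0.00774), and ARID1B, near the detection limit, differed by 0.36 (0.0193). SMARCB1 and SMARCE1, core subunits, differed from hESC by −0.51 (adjusted p = 9.67e-04) and 0.08 (0.542).

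**Figure D4:**
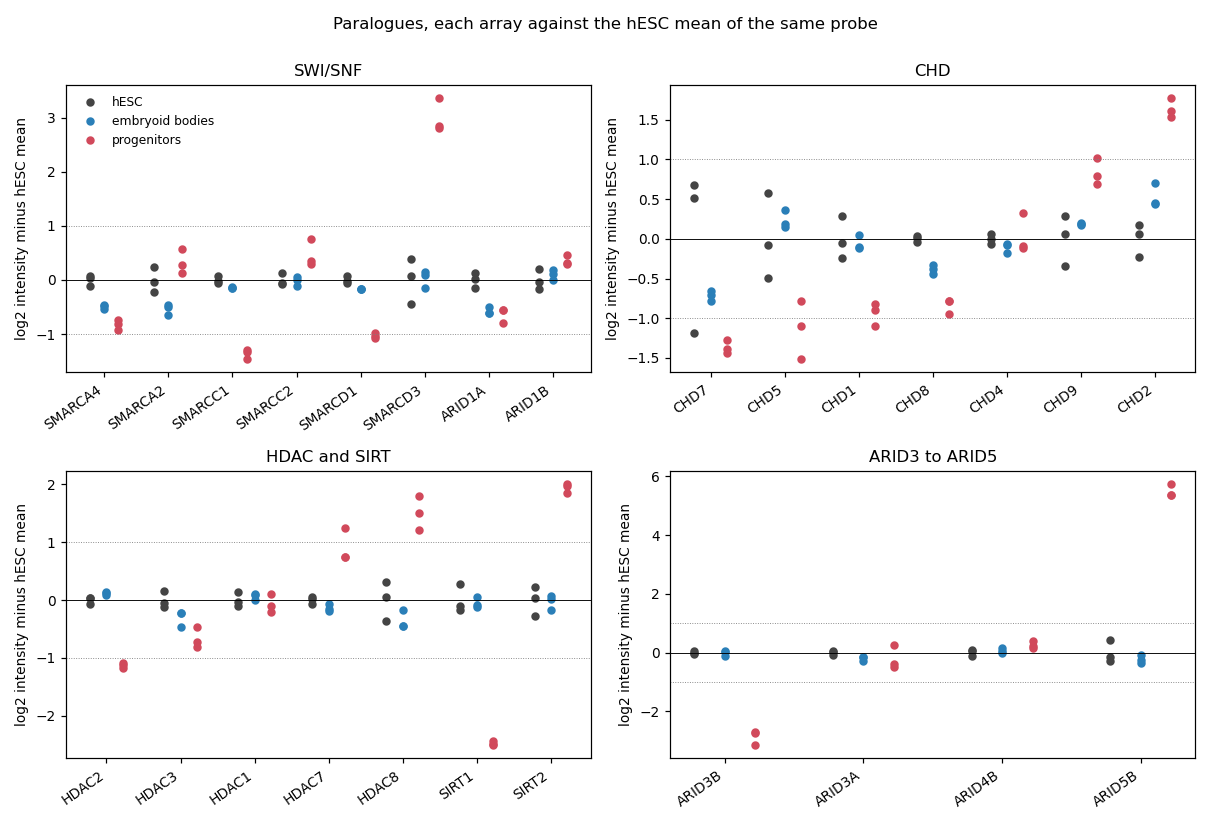
Log2 intensity of each array minus the hESC mean of the same probe, for paralogues in 4 panels (y axis, each panel with its own range; dotted lines mark 2-fold). SMARCD3, CHD2, HDAC8, SIRT2 and ARID5B are above the upper dotted line in progenitors, and SMARCC1, HDAC2, SIRT1 and ARID3B below the lower one.

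Among 4 further SMARCA motors, SMARCAD1, which restores silent chromatin after replication, fell by 1.19 against hESC (SE 0.09, adjusted p = 4.46e-06), from 10.58, 10.57 and 10.76 to 9.37, 9.54 and 9.45, with embryoid bodies at 10.27, 10.31 and 10.18 between them. The 2 ISWI motors had differences of opposite sign. SMARCA5 (SNF2H) read 10.42, 10.24 and 10.22 in hESC and 9.54, 9.25 and 9.44 in progenitors, and SMARCA1 (SNF2L) read 10.65, 10.61 and 10.68 and 11.44, 11.94 and 11.40. Their differences, −0.88 and 0.95 (adjusted p = 5.97e-05 and 2.53e-04), stayed just under 2-fold. SMARCA1 passed it without progenitor 1 (1.02) or progenitor 3 (1.05), and also against embryoid bodies (1.04 and 1.06). A second, dimmer SMARCA1 probe gave 1.05 against hESC and 1.17 against embryoid bodies. The mean of the SMARCA1 probes passed 2-fold against embryoid bodies (1.07). SMARCAL1, an annealing helicase, differed from hESC by 0.14 (adjusted p = 0.205).

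Of 9 CHD genes, 3 fell and 1 rose against hESC and 5 did not change, where 19.1% of all genes fell and 14.7% rose. CHD2, which deposits a histone variant at active genes, read 7.06, 6.66 and 6.95 in hESC, 7.35, 7.33 and 7.60 in embryoid bodies and 8.66, 8.42 and 8.502 in progenitors. It was higher at each stage without overlap, 0.54 in embryoid bodies (adjusted p = 0.0213, under 2-fold) and 1.64 (SE 0.13, adjusted p = 5.04e-06) in progenitors. CHD7, a motor bound at enhancers and needed by neural crest, read 11.26, 11.10 and 9.39 in hESC, 9.92, 9.88 and 9.80 in embryoid bodies and 9.14, 9.31 and 9.20 in progenitors. Array 3 of hESC was the low one and lay below every embryoid body array. The fall in progenitors, −1.37 (SE 0.41, adjusted p = 0.0149), did not pass without hESC 1 (adjusted p = 0.0561) or hESC 2 (0.058). Without hESC 3 the fall was −1.96 (adjusted p = 8.83e-07), and CHD7 was lower in embryoid bodies too (−1.31, adjusted p = 0.000151).

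CHD3, an ATPase of the NuRD repressor complex, showed the largest difference of any member between embryoid bodies and hESC. Its probe read 6.91, 6.78 and 7.18 in hESC, 8.01, 8.05 and 7.60 in embryoid bodies and 5.60, 5.51 and 5.36 in progenitors, where it was not detected on any array. The difference in embryoid bodies was 0.93 (SE 0.15, adjusted p = 0.00417), and it passed 2-fold without hESC 3 (1.04) or embryoid body 3 (1.07). In progenitors CHD3 was at least 1.84-fold lower than in hESC (adjusted p = 2.63e-05) and at least 3.52-fold lower than in embryoid bodies (adjusted p = 1.06e-06). A second CHD3 probe pointed the other way in all 3 comparisons (−0.60, 0.74 and 1.34), and with the mean of both probes the change against hESC did not pass (−0.36, adjusted p = 0.0568), and that against embryoid bodies was under 2-fold (−0.53, adjusted p = 0.0113). CHD4, the NuRD ATPase of most cells, read 11.46, 11.38 and 11.52 in hESC and 11.34, 11.78 and 11.37 in progenitors (0.04, adjusted p = 0.774). CHD5, detected on 2 of 3 progenitor arrays, fell by 1.13 against hESC (adjusted p = 0.00421), but by 0.85 without hESC 3 and 0.94 without progenitor 1.

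Most histone methyltransferase genes did not change. The KMT2 (MLL) family includes enzymes that methylate histone H3 at active promoters and enhancers. Its 4 genes measured here differed between progenitors and hESC by −0.06 to 0.03. In limma's test 0 of 4 had an unadjusted p under 0.05, where 71% of all genes did. KMT2A read 7.40, 7.42 and 8.03 in hESC and 7.60, 7.42 and 7.70 in progenitors, with embryoid bodies at 6.996, 7.16 and 7.29. KMT2B, KMT2C and KMT2E had adjusted p-values of 0.797, 0.893 and 0.745 in limma's fit. Of 9 SETD and KMT5 genes 2 fell, 0 rose and 7 did not change against hESC, where 19.1% of all genes fell and 14.7% rose. SETD6, a lysine methyltransferase of a NF-kB subunit, read 9.46, 9.24 and 9.23 in hESC, 8.79, 8.72 and 8.83 in embryoid bodies and 6.05, 6.45 and 6.14 in progenitors, where it was detected on 2 of 3 arrays. Its fall was 8.53-fold, −3.09 (SE 0.12, adjusted p = 4.96e-08), and the groups did not overlap. SETD4 fell by 1.19 (adjusted p = 1.02e-05), with 8.72, 8.61 and 8.75 in hESC and 7.55, 7.32 and 7.64 in progenitors. KMT5A, which methylates histone H4 during cell division, was higher by 0.97 (adjusted p = 7.32e-04), just under 2-fold, and past it without hESC 3 (1.04) or progenitor 2 (1.18). It also passed 2-fold against embryoid bodies without progenitor 2 (1.03).

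Of 13 KDM demethylase genes, 1 fell, 0 rose and 12 did not change against hESC, where 19.1% of all genes fell and 14.7% rose. At any fold, 9 of 13 were lower and 2 higher at an adjusted p under 0.05, where 37.5% of all genes were lower and 30.9% higher. KDM2B, which recruits a PRC1 variant to CpG islands, read 13.004, 12.87 and 13.25 in hESC, 12.91, 12.93 and 12.89 in embryoid bodies and 11.04, 10.88 and 11.03 in progenitors. It fell 4.17-fold against hESC, −2.06 (SE 0.11, adjusted p = 3.72e-07). A second, dim KDM2B probe moved by −0.21. KDM6A (UTX), which removes the PRC2 mark, peaked in embryoid bodies: 9.96, 9.93 and 10.26 in hESC, 10.48, 10.47 and 10.46 in embryoid bodies and 9.01, 9.29 and 9.01 in progenitors. The difference in embryoid bodies was under 2-fold (0.42, adjusted p = 0.0368), and the fall from embryoid bodies to progenitors was −1.37 (SE 0.12, adjusted p = 8.51e-06). Against hESC KDM6A differed by −0.95, and by more than 2-fold without hESC 2 (−1.0) or progenitor 2 (−1.04). KDM1A (LSD1), a demethylase that shuts enhancers, differed by −0.95 (adjusted p = 7.97e-06), and KDM5C, an X-linked demethylase, by 0.64 (0.0114). KDM4D, undetected on the progenitor arrays, was at 6.57, 6.56 and 6.72 in hESC.

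Class I histone deacetylases differed from one another. HDAC1, a subunit of the NuRD, SIN3 and CoREST complexes, read 13.30, 13.24 and 13.47 in hESC, 13.43, 13.45 and 13.34 in embryoid bodies and 13.13, 13.44 and 13.23 in progenitors, groups that overlapped (−0.07, adjusted p = 0.575). HDAC2, its partner in the same complexes, read 13.69, 13.69 and 13.58, 13.73, 13.80 and 13.78 and 12.57, 12.48 and 12.53, a fall of −1.13 (SE 0.08, adjusted p = 2.25e-06). HDAC3, of the NCoR complex, differed by −0.67 (adjusted p = 0.00122). HDAC8, known from smooth muscle and as the cohesin deacetylase, read 6.24, 6.501 and 5.84 in hESC, 5.75, 5.75 and 6.02 in embryoid bodies and 7.41, 7.99 and 7.70 in progenitors. It was detected on 2, 1 and 3 of 3 arrays and rose by 1.505 (SE 0.20, adjusted p = 1.17e-04) against hESC. This rise was under 2-fold without background correction (0.77) and in the authors' log2 table (0.83). Of the class II enzymes, HDAC7 was 0.92 higher against hESC (1.0 without progenitor 3) and rose by 1.05 against embryoid bodies (adjusted p = 1.25e-04, 0.88 without progenitor 2). HDAC6, a tubulin deacetylase, was 0.80 higher against hESC (adjusted p = 0.0102). HDAC11 differed by −0.03 (0.869), and HDAC9 was not detected on any progenitor array.

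The sirtuins, which need NAD for deacetylation, held a large change in each direction. SIRT1, which deacetylates p53 and histones, read 10.88, 10.80 and 11.25 in hESC, 10.90, 10.85 and 11.04 in embryoid bodies and 8.48, 8.54 and 8.47 in progenitors. It fell 5.58-fold, −2.48 (SE 0.13, adjusted p = 2.48e-07), with the progenitor arrays close together. SIRT2, a mainly cytoplasmic enzyme, read 5.86, 6.06 and 5.55 in hESC, 5.84, 5.90 and 5.64 in embryoid bodies and 7.67, 7.83 and 7.79 in progenitors. It rose by 1.94 (SE 0.14, adjusted p = 2.18e-06) against hESC, where it was detected on 2 of 3 arrays, and at least 3.42-fold against embryoid bodies, where it was detected on none (adjusted p = 1.89e-06). SIRT5, a mitochondrial desuccinylase, was highest in embryoid bodies (9.78, 9.92 and 9.71 in hESC, 10.15, 10.20 and 10.20, then 9.28, 9.03 and 9.40 in progenitors). Progenitors differed from embryoid bodies by −0.95 (adjusted p = 5.73e-05), and past 2-fold without progenitor 3 (−1.03) or with the mean of the SIRT5 probes (−1.15).

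The largest rise of any member was that of ARID5B, a DNA-binding cofactor of the demethylase PHF2 known from fat and mesenchymal cells. It read 5.69, 5.83 and 6.38 in hESC, detected on 1 of 3 arrays, 5.60, 5.88 and 5.73 in embryoid bodies, detected on none, and 11.33, 11.71 and 11.33 in progenitors. ARID5B rose by 5.49 (SE 0.19, adjusted p = 2.20e-08) against hESC, 45-fold in the fit, and at least 44.3-fold against embryoid bodies (adjusted p = 1.81e-08). ARID3B, a relative that binds AT-rich DNA, read 11.83, 11.94 and 11.86, 11.94, 11.91 and 11.76 and 9.16, 8.73 and 9.15 and fell 7.26-fold, −2.86 (SE 0.13, adjusted p = 1.13e-07). ARID4B, of the SIN3 complex, differed by 0.27 (adjusted p = 0.0411). ARID3A, the paralogue of ARID3B, read 12.20, 12.06 and 12.21 in hESC and 11.68, 12.41 and 11.78 in progenitors, where array 2 lay above all hESC arrays (−0.20, adjusted p = 0.342).

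Differences between embryoid bodies and hESC stayed under 2-fold. At an adjusted p under 0.05 with no minimum fold, 15 of 82 members (18.3%) differed, 5 higher and 10 lower, beside 21.7% of all genes. The groups of these 15, picked by p on the same arrays, did not overlap, nor did those of 48.8% of all genes. The lower ones were ARID1A, RING1, SMARCA2, CBX5, SETD6, SMARCA4, CHD8, SMARCAD1, SETD2 and SETD1A, with log2 differences of −0.57 to −0.34. CHD8, a motor that restrains WNT targets, read 11.82, 11.76 and 11.84 in hESC and 11.36, 11.48 and 11.42 in embryoid bodies (−0.39, adjusted p = 0.0145). SETD2, which methylates histone H3 along transcribed genes, read 10.77, 10.69 and 10.88 and 10.38, 10.47 and 10.34 (−0.39, 0.0239). The higher ones were CHD3, CHD2, KDM6A, SIRT5 and KMT5B (0.30 to 0.93). The number was 6 without hESC 1, 8 without hESC 2, and 3, 4 and 5 without embryoid body 1, 2 and 3 in turn. The fit with the closest arrays averaged left 1 embryoid body column and cannot decide this number. Against hESC the progenitors had 61 such members (74.4%, 17 higher and 44 lower) beside 68.5% of all genes.

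Spread within the groups was low for most members. The median SD over 3 arrays was 0.14 in hESC, 0.07 in embryoid bodies and 0.17 in progenitors. SDs over 0.5 were found for CHD7 (1.03), CBX1 (0.88) and CHD5 (0.54) in hESC, SIRT6 (0.55) in embryoid bodies, and CBX7 (0.78) and SIRT4 (0.67) in progenitors. SIRT4, a mitochondrial sirtuin, read 7.63, 7.81 and 6.92 in hESC and 6.54, 7.64 and 6.41 in progenitors, so that progenitor 2 sat among the hESC values. It differed by −0.59 from hESC (adjusted p = 0.145), and by −1.25 (6.98e-05) without hESC 3 and progenitor 2. Against embryoid bodies SIRT4 moved by −0.69 (0.0942), and by −1.08 (0.00494) without progenitor 2.

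**Figure D5:**
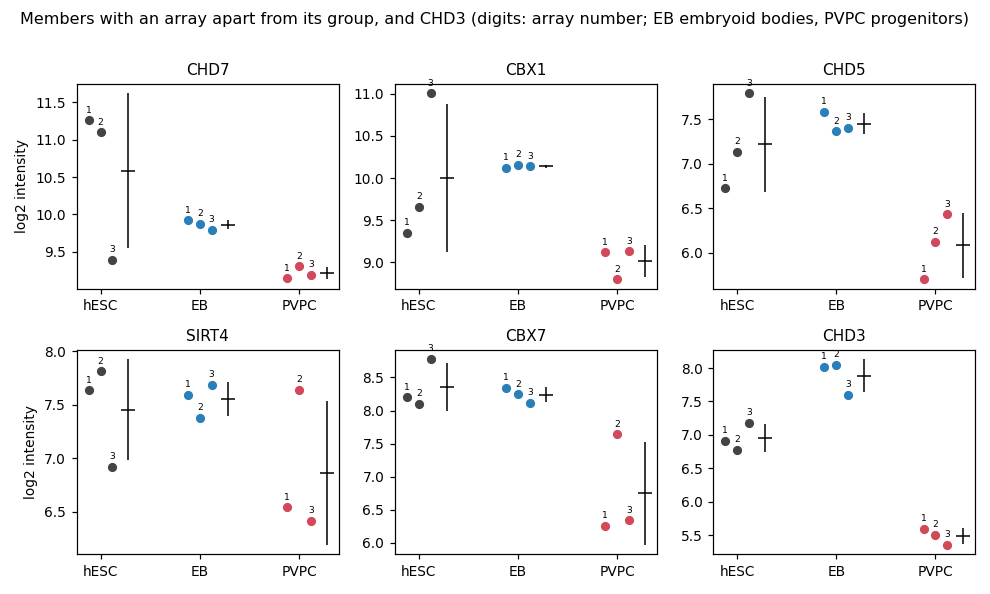
Log2 intensity (y axis, range set per gene) of 6 members on each array, numbered as in the labels, with mean and SD beside them. In CHD7 and CBX1 hESC 3 lies away from hESC 1 and 2, in CBX7 and SIRT4 progenitor 2 lies away from progenitors 1 and 3, and CHD3 is highest in embryoid bodies.

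Other chromatin genes came from a list of further enzymes, motors, readers and partners outside the families above. Of 96 measured, 0 changed in embryoid bodies (39, or 40.6%, at an unadjusted p under 0.05 in limma's test, beside 35.7% of all genes). In progenitors 9 rose and 24 fell against hESC, 34.4% beside the 33.7% of all genes. PRDM14, a repressor of lineage genes in stem cells, read 11.48, 11.48 and 10.89 in hESC and 5.23, 5.19 and 5.25 in progenitors, undetected there, a fall of at least 37.1-fold (adjusted p = 2.92e-08). MBD2, which reads methylated DNA for NuRD (−4.15), SCML2, a Polycomb protein (at least 5.31-fold), HELLS, a motor that aids DNA methylation (−2.89), and RCOR2, a partner of KDM1A (−2.43), fell too. PHC2, the paralogue of PHC1, read 5.95, 5.36 and 5.01 in hESC, detected on 1 of 3 arrays, and 8.65, 8.33 and 8.41 in progenitors, a rise of 3.02 (SE 0.21, adjusted p = 2.13e-06). KAT2B, an acetyltransferase (2.32), SCMH1 (1.90) and YAF2 (1.89), both Polycomb proteins, and the oxygenase RIOX2 (1.89) rose as well. Against embryoid bodies 12 rose and 19 fell (32.3%, beside 34.2% of all genes), and the changes of MTA3, a NuRD subunit, and JMJD6, an oxygenase, were −2.28 and 1.72.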

How the data were processed

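Total RNA of 9 samples was amplified and measured on Illumina BeadChips. The deposited intensity table holds mean bead intensities on a linear scale, apparently without background subtraction (no value is below 0), for 47323 probes. The deposited detection p-values move in steps of 1 in 770, from which the negative controls were inferred. The authors' deposited log2 table holds 20127 probes with a like distribution on every array, and BeadStudio was used, per the submitters' processing notes. Its version and the background settings are not stated there. Symbols came from the platform annotation (15592 probes with 1 symbol, 4 with several, 4531 unnamed), updated through 15585 of 15596 Entrez identifiers.

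Intensities were processed with neqc of limma 3.58.1 in R 4.3.3 (normexp, offset 16, quantile normalization, log2). Probes detected at p under 0.05 on at least 3 of 9 arrays were kept (21683). One probe per gene, with the highest mean in the authors' table, gave 11991 genes. One lmFit and eBayes model covered all 9 arrays (6 residual degrees of freedom), two-sided, with Benjamini-Hochberg adjustment per comparison. Where a group was undetected on every array, a fold is a bound: the brighter mean against, per array, the higher of the probe's own value and the lowest detected signal. The procedure was tested on simulated data. The number of arrays limits precision.

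The members, the role groups and the gene lists were chosen with earlier results of these data known. Members named are JARID2 and PHC1, the 15 largest changes each way per comparison with progenitors, the 4 largest per role, and whole paralogue sets. 8 more, CHD4, CHD8, KDM5C, KMT5B, SETD2, SIRT6, SMARCB1 and SMARCE1, were named after their values were seen. Title numbers were not used to pair the arrays in the main fit. Same-numbered deviations correlated between −0.12 and 0.06, which cannot show whether such samples share a culture.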

Additional observations from a re-analysis of the deposited data

How the results depend on the processing

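The count of changed members in embryoid bodies (0) was also 0 under median scaling, without background correction and in the authors' log2 table. In these settings 4.93%, 1.23% and 1.26% of all genes changed. The member count was also 0 with a stricter detection filter, with averaged probes and with a trended robust variance. Dropping the detection filter left the same 11991 genes, so that setting repeats the main fit. Averaging the closest arrays left 1 embryoid body column and 2 residual degrees of freedom, so that fit cannot decide whether members changed. The count was 15 with no minimum fold and 0 to 2 with 1 array left out. It was 2 (CHD3 and CHD7) without hESC 3 and progenitor 2, a setting chosen after seeing the data. Members at an adjusted p under 0.05 in embryoid bodies against hESC (15) numbered 38 under median scaling. Median scaling put the median of all genes at −0.28 (−0.24 for progenitors against hESC). These members numbered 8 with the replicate block, 27 without both arrays that stand apart, and 3 to 20 with 1 array left out.

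Changed members in progenitors against hESC (24 of 82) numbered 23 to 27 with 1 array left out and 61 with no minimum fold. They numbered 17 without background correction or in the authors' table and 33 under median scaling. Of all genes 22.8%, 21.9% and 35.2% changed in these settings, in turn, beside 33.7% in the main fit. Against embryoid bodies (25) changed members numbered 24 to 28 with 1 array left out and 59 with no minimum fold. Without background correction they numbered 15, where 23.5% of all genes changed, beside 34.2% in the main fit. At any fold 61 and 59 members passed, 55 to 63 and 56 to 62 with 1 array left out, and 39 and 33 with averaged arrays, in a fit with fewer columns. The replicate block, on numbers the samples only share, left 24 and 25 changed.

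No change named among members was reversed in any setting. Changes of 15 and 17 of 49 member comparisons fell below 2-fold in the authors' table or without background correction respectively. In both settings these included ARID2, CBX7, CHD5 and SETD4 in both comparisons with progenitors. CHD3 and HDAC8 against hESC, and CBX1, CHD2, EZH2 and HDAC7 against embryoid bodies, were also lost in both settings. Without background correction alone the changes of SIRT2 (0.97 against hESC) and of HDAC8 against embryoid bodies were lost. In the authors' table alone that of SMARCD1 against hESC was lost. The cause was not tested.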

Other observations

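Of the 82 chromatin regulators, 18 had more than 1 probe, 24 further probes in all. In progenitors against hESC 21 of these had the sign of the probe used, and the other 3 belonged to CHD3, KMT2C and SMARCC2. In embryoid bodies against hESC 16 had the same sign and 8 the opposite one. Between progenitors and embryoid bodies these numbers were 22 and 2. The KMT5B probes differed in size: −0.50 for the probe used and −1.29 for the other, while the 4 SIRT5 probes gave −0.57, −0.40, −0.28 and −1.79. By mean level, 39 members were highest in hESC, 17 in embryoid bodies and 26 in progenitors.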
